A study of Mus musculus with 6 samples.

Results

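Myokines are signalling proteins that skeletal muscle cells make and release, and the transcripts of 10 of them were followed from myoblasts to myotubes: *Fndc5*, *Il15*, *Lif*, *Bdnf*, *Angptl4*, *Metrnl*, *Sparc*, *Vegfa*, *Apln* and *Ostn*. They were chosen by name, as the rows of the deposited gene counts that carry these symbols, and all 10 were among the 54525 gene rows. The cells were C2C12, an established mouse myoblast line that stops dividing and fuses into multinucleated myotubes when serum is lowered. RNA-seq was performed on 3 wild type (WT) samples at day 0 (D0), in growth medium with fetal bovine serum, and on 3 WT samples at day 5 (D5), after differentiation in medium with horse serum. No sample had another treatment, and both groups come from 1 cell line without nerve, vessel or blood supply. The labels give the cell type of all 6 samples as myoblasts and give the day only in the sample titles. They do not say whether the 3 samples of a group were grown as separate cultures, so p-values measure the spread between these samples, which may be technical.

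Muscle releases some of these proteins mainly during contraction or metabolic stress, and they act on the muscle itself or reach bone, fat, vessels and brain. Some, such as irisin and the neurotrophins, are cut from a longer precursor by proteases, so a transcript level says how much template is present and not how much factor leaves the cell.

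Depth was 36555048 to 40895840 gene counts per library for D0 and 25449759 to 25811300 for D5. Levels are given as CPM (counts per 1000000 counts, scaled with edgeR's TMM factors). Genes are compared with each other only as TPM, which also divides by exonic length. The 2 days were compared over 16290 genes with the quasi-likelihood test of edgeR, and a gene was called at a Benjamini-Hochberg adjusted p under 0.05. An exact permutation test on 3 samples per day reaches at best a two-sided p of 0.1 and was not used for single genes. The D5 samples carried myotube RNA: all 8 myotube markers were called higher, among them *Myh3*, an embryonic myosin heavy chain, from 1.70 to 4702 mean CPM, and all 6 myoblast and proliferation markers were called lower, among them *Mki67*, from 704 to 20.4 mean CPM. Markers of endothelial, immune, adipocyte and neural cells were at or near 0, with a summed level of at most 3.39 CPM per list in any library, and *Emcn*, *Adgre1*, *Cidec*, *Lep* and *Rbfox3* among them had 0 counts in all 6. The 5 markers of fibroblasts and fibro-adipogenic cells summed to 36.3 to 39.5 CPM at D0 and 129 to 145 CPM at D5. Of these, *Pdgfra*, *Dpt*, *Lum* and *Cd34* were called higher and *Ly6a* was not called, and their part in the rises described here was not tested. In bulk RNA, fewer cells that make a transcript and less of it per cell cannot be told apart.

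For the members whose level changed, the sequence upstream of the transcription start is shown, since it is the stretch where promoter motifs would lie. RefSeq (GRCm38.p6) held 14 promoter entries for 7 of the 10 genes, with 7 entries for *Bdnf* and 2 for *Vegfa*. *Il15*, *Angptl4* and *Ostn* had none. The 5 stretches printed are those of called members that lie outside every annotated transcript of their gene. Each runs from 250 to 51 bases before the start, 5′ to 3′ on the gene's strand. Capitals mark matches on either strand to the E-box CAGCTG (bound by MyoD and myogenin), the core ACGTG of hypoxia response elements, the cyclic AMP response element TGACGTCA and the GC box GGGCGG.
*Fndc5*, + strand, chr4:129136749-129136948: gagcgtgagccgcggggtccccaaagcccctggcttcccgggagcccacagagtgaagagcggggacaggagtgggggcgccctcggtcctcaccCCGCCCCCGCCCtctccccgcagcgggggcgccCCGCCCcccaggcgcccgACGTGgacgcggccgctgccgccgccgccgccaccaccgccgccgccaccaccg
*Lif*, + strand, chr11:4257318-4257517: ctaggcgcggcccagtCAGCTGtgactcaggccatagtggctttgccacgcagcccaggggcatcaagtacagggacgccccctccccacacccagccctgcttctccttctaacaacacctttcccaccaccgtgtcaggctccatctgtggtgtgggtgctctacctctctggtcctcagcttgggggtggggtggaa
*Bdnf*, + strand, first of its starts, chr2:109674450-109674649: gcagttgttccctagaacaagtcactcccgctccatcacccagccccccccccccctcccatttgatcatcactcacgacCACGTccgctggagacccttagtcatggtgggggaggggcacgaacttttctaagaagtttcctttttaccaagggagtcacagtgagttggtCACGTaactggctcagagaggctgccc
*Vegfa*, - strand, outermost start, chr17:46032428-46032627: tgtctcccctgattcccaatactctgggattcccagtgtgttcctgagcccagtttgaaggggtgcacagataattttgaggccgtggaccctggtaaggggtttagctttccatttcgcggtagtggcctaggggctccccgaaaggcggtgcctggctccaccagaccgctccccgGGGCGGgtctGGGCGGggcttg
*Apln*, - strand, chrX:48034904-48035103: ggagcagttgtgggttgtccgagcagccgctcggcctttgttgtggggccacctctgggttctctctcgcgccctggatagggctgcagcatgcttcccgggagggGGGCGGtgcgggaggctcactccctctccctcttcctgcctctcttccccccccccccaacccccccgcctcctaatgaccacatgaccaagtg

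Over the whole 250 bases before the start, *Fndc5* held 3 GC boxes, at 155, 149 and 122 bases upstream, and 1 hypoxia core at 104. *Lif* held 1 E-box at 234. The first *Bdnf* start had 2 hypoxia cores, at 170 and 77. *Vegfa* held 2 GC boxes, at 72 and 62, and *Apln* held 1 at 144. No 2 of these matches share a base. Among all 32851 mouse promoter entries the E-box was found in 13.0%, the hypoxia core in 16.6%, the cyclic AMP element in 1.55% and the GC box in 32.7%. Of the 14 myokine entries, 4 held an E-box, 4 a hypoxia core, 0 the cyclic AMP element and 7 a GC box. Besides *Lif*, the E-box entries were *Metrnl* (38 bases upstream, not called), *Sparc* (60, called lower) and a further *Bdnf* start (171). A match of letters is a description of the sequence and not a bound site.

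Of the 10 myokine genes, 9 passed the filter on low counts. In the test 5 were called higher at D5 (*Fndc5*, *Il15*, *Lif*, *Bdnf* and *Angptl4*), beside 42.2% of all genes tested, and 3 were called lower (*Sparc*, *Vegfa* and *Apln*), beside 40.8% of all genes tested. *Metrnl* was not called, and *Ostn* had too few counts to be tested. Without overlap between the groups, 6 members lay above at D5, beside 42.2% of all genes tested, and 3 lay below, beside 41.1%. *Fndc5* and *Il15* passed the filter only through their D5 counts and so had to differ, so these counts describe the members and support nothing about them as a group. The median log2 fold change was 1.59 with that pair and 0.09 over the 7 members above the floor of 3 counts in both groups, against 0.00 over all genes tested. Of these 7, 3 moved by more than 1 on the log2 scale, as did 35.3% of all genes tested.

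**Figure D1:**
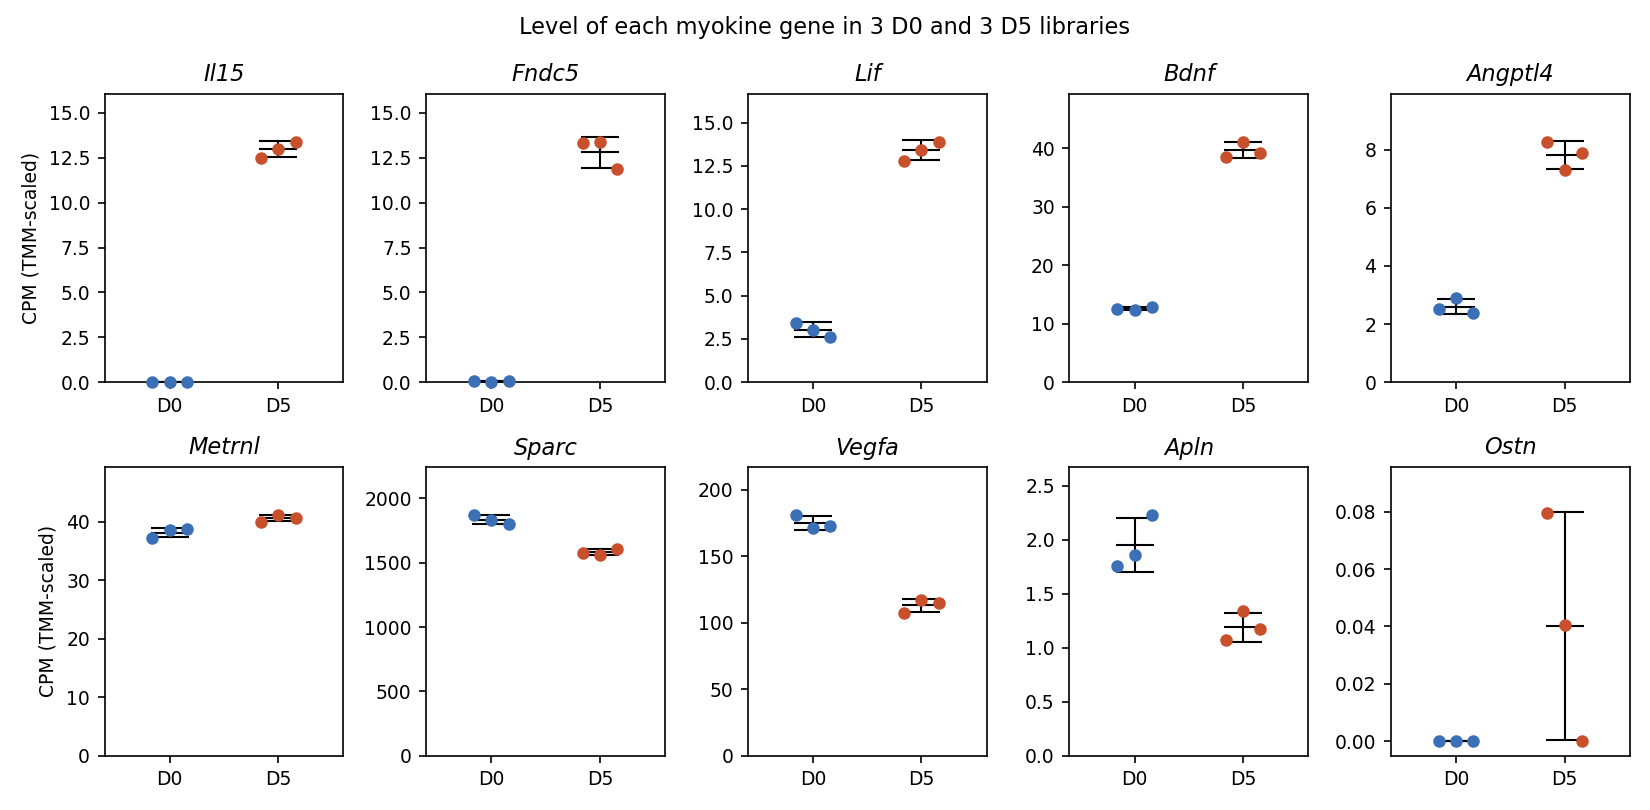
Level of each of the 10 myokine genes in CPM (TMM-scaled, linear axes) in the 3 D0 samples (blue) and the 3 D5 samples (orange), with the mean and SD in black. *Il15* and *Fndc5* sit at or near 0 at D0 and between 11.9 and 13.4 CPM at D5, whereas *Metrnl* moves only from a mean of 38.1 to 40.6 CPM.

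*Fndc5* encodes a membrane protein whose shed outer part is irisin (ENSMUSG00000001334.9, GRCm38 chromosome 4 from 129136999 to 129144593, + strand, 6 exons). It had 3, 1 and 2 counts in the D0 samples and 334, 330 and 295 counts in the D5 samples. Myoblasts were thus at the detection floor of 3 counts per library, which covers counting error only, and every myotube sample was far above it. As CPM, 0.0512 ± 0.0282 became 12.8 ± 0.86 (SD, n = 3 each). Pooled over samples, 6 counts stood against 959, a ratio of 256 with an exact 95% counting interval from 117 to 701 (adjusted p = 7.9e-25 in edgeR). Since *Fndc5* passed the filter only through D5, that p-value adds no support of its own.

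*Il15* encodes interleukin 15, a cytokine that maintains natural killer and memory T cells and is also expressed in muscle (ENSMUSG00000031712.10, GRCm38 chromosome 8 from 82331632 to 82403222, - strand, 11 merged exons). Its counts were 0, 1 and 0 at D0 and 314, 320 and 333 at D5. A single read in 3 myoblast libraries stood against 967 in the 3 myotube libraries, a ratio of 1552 whose exact 95% interval, from 278 to 61354, shows how little 1 read fixes the lower level. At D5 the level was 13.0 ± 0.442 CPM (SD, n = 3), and the adjusted p was 3.7e-25 in edgeR. Here too the filter was passed only through D5, so the p-value adds no support of its own. Of the 54525 listed genes, 99 (0.182%) had at most 3 counts in every D0 sample and at least 100 in every D5 sample, and 50 (0.0917%) had at least 250, limits set with the values of *Fndc5* and *Il15*, which meet both, known.

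*Lif* encodes leukemia inhibitory factor, a cytokine of the interleukin 6 family that acts on muscle precursors (ENSMUSG00000034394.14, GRCm38 chromosome 11 from 4257557 to 4272514, + strand). It had 129, 128 and 105 counts at D0 and 321, 329 and 347 at D5, although the D5 libraries were shallower. Expressed as CPM this was 3.44, 3.04 and 2.61 against 12.8, 13.4 and 13.9, with no overlap. The log2 fold change was 2.14 (SE 0.098, 95% interval 1.94 to 2.34, adjusted p = 1.2e-18 in edgeR), a rise of 4.41-fold.

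*Bdnf* encodes brain-derived neurotrophic factor, a neurotrophin that supports neurons and is also made by muscle cells (ENSMUSG00000048482.14, GRCm38 chromosome 2 from 109674700 to 109727007, + strand). Its CPM was 12.5, 12.4 and 12.9 at D0 and 38.5, 41.1 and 39.1 at D5. The D5 samples lay well apart from the D0 samples, with a log2 fold change of 1.65 (SE 0.053, 95% interval 1.54 to 1.76, adjusted p = 1.2e-22 in edgeR), or 3.14-fold. The gene shares 14.4% of its exonic length with *Gm45346* on the other strand, and the strand setting of the counting is not given in the sources used here. *Gm45346* itself had at most 3 counts in any library.

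*Angptl4* encodes a secreted inhibitor of lipoprotein lipase that is induced by fatty acids and fasting (ENSMUSG00000002289.15, GRCm38 chromosome 17 from 33773750 to 33781830, - strand). It had 94, 121 and 96 counts at D0 and 208, 180 and 196 at D5, or 2.51, 2.88 and 2.38 CPM against 8.28, 7.30 and 7.88 CPM. Again the groups did not overlap. The log2 fold change was 1.59 (SE 0.11, 95% interval 1.36 to 1.82, adjusted p = 7.0e-14 in edgeR), a rise of 3.01-fold.

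*Metrnl* encodes meteorin-like, a circulating protein released by muscle and fat (ENSMUSG00000039208.15, GRCm38 chromosome 11 from 121701544 to 121716306, + strand). The CPM was 37.2, 38.5 and 38.7 at D0 and 40.0, 41.1 and 40.6 at D5. Each D5 sample exceeded each D0 sample by CPM, but the difference was small and missed the threshold, with a log2 fold change of 0.09 (95% interval -0.00 to 0.18, edgeR adjusted p = 0.0604). As TPM the order of the means was the opposite, 83.1 ± 3.05 at D0 and 79.3 ± 0.629 at D5 (SD, n = 3 each), and scaling to the spike-ins also turned the direction, to -0.47 (adjusted p = 0.5 in edgeR).

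*Sparc* encodes osteonectin, a collagen-binding protein of the matrix that also circulates (ENSMUSG00000018593.13, GRCm38 chromosome 11 from 55394500 to 55423183, - strand). Its counts were 70034, 77133 and 72479 at D0 and 39522, 38513 and 39980 at D5, by far the highest of the 10 genes. As CPM, 1835 ± 34.8 became 1581 ± 23.1 (SD, n = 3 each). This fall was modest and exceeded the replicate spread, with a log2 fold change of -0.21 (SE 0.032, 95% interval -0.28 to -0.15, adjusted p = 4.9e-07 in edgeR), which left 86.2% of the D0 level.

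*Vegfa* encodes vascular endothelial growth factor A, the main signal for vessel growth toward muscle fibres (ENSMUSG00000023951.17, GRCm38 chromosome 17 from 46016993 to 46032369, - strand). The CPM was 181, 171 and 173 at D0 and 107, 117 and 115 at D5. Every myotube sample lay below every myoblast sample. The log2 fold change was -0.63 (SE 0.037, 95% interval -0.70 to -0.55, adjusted p = 5.3e-16 in edgeR), which left 64.7% of the D0 level.

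*Apln* encodes apelin, a peptide hormone that acts on vessels, heart and muscle stem cells (ENSMUSG00000037010.7, GRCm38 chromosome X from 48025146 to 48034853, - strand). It had 66, 78 and 90 counts at D0 and 27, 33 and 29 counts at D5. At 1.76, 1.86 and 2.23 CPM against 1.07, 1.34 and 1.17 CPM the groups did not overlap, though the low counts gave the widest interval of the 7 members measured in both groups. The log2 fold change was -0.71 (SE 0.19, 95% interval -1.10 to -0.32, adjusted p = 0.00129 in edgeR).

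*Ostn* encodes musclin (osteocrin), a peptide that muscle releases with exercise and that also acts on bone (ENSMUSG00000052276.8, GRCm38 chromosome 16 from 27307489 to 27351212, + strand). It had 0, 0 and 0 counts at D0 and 2, 1 and 0 counts at D5. Both groups were at or under the floor of 3 counts per library, so no fold change is given and a difference was not detectable at this depth. It shares 12.9% of its exonic length with *Gm32312* on the other strand.

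**Figure D2:**
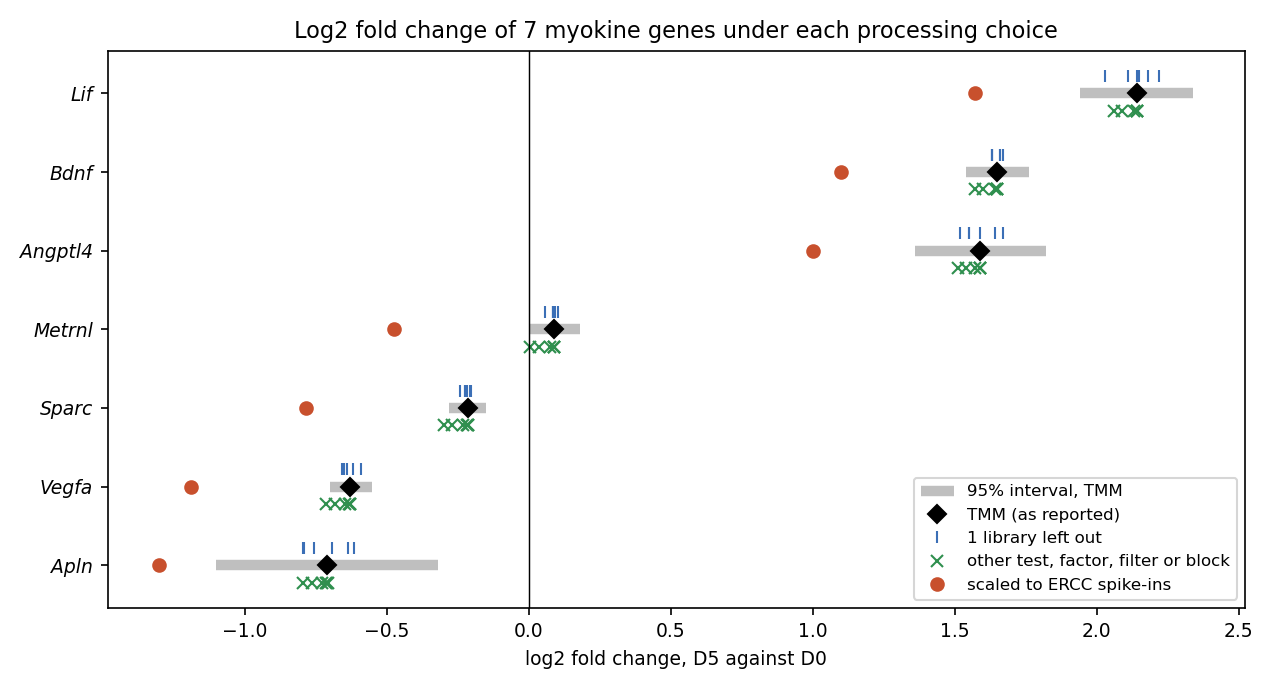
Log2 fold change of D5 against D0 for the 7 myokine genes with counts above the floor in both groups, with the TMM value (black diamond), its 95% interval (grey bar), the fits without 1 library (blue ticks), the other tests, factors, filters and the replicate block (green crosses) and ERCC spike-in scaling (orange circles). Spike-in scaling moves all 7 to lower values and turns *Metrnl* from 0.09 to -0.47, and the other choices stay close to the TMM value.

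The direction of *Metrnl* and the size of every change depended on what was held constant. ERCC spike-ins are synthetic RNAs added to a sample, and they took 0.726% to 0.859% of all counts at D0 and 0.720% to 2.09% at D5, lowest in D5 replicate 2 and highest in D5 replicate 3. Scaled to them, the median log2 fold change of all genes moved to -0.58, the genes called fell from 13510 to 5560, and the share of calls that were higher went from 50.8% to 32.6%. Among the myokines *Fndc5* and *Il15* kept their calls, as did *Lif* at 1.57 on the log2 scale (edgeR adjusted p = 0.0131). *Bdnf* (1.10, adjusted p = 0.0906), *Angptl4* (1.00, adjusted p = 0.131), *Sparc* (-0.78, adjusted p = 0.231), *Vegfa* (-1.19, adjusted p = 0.0626) and *Apln* (-1.30, adjusted p = 0.0544) kept their direction and lost the call. Relative to the shifted median, *Lif*, *Bdnf* and *Angptl4* remained above it and *Sparc*, *Vegfa* and *Apln* below it, whereas *Metrnl* lay 0.10 above. On this scale the D5 samples differed widely from each other: across D5 replicates 1, 2 and 3, *Vegfa* had spike-in-scaled log2 ratios to its D0 mean of -1.38, -0.52 and -2.09, and *Bdnf* had 0.94, 1.77 and 0.14.

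Per length, the 10 genes covered a wide range. At D0 *Sparc* led with 1675 ± 7.62 TPM (SD, n = 3), at or above 99.8% of the genes with a TPM over 0, and made up 87.5% of the summed TPM of the members. *Vegfa* followed with 141 ± 2.75 TPM and *Metrnl* with 83.1 ± 3.05 TPM. *Bdnf* stood at 7.01 ± 0.245 TPM. *Angptl4*, *Lif* and *Apln*, at 2.53 ± 0.252, 2.41 ± 0.296 and 2.15 ± 0.306 TPM, overlapped with their neighbours in that order. *Fndc5* at 0.0638 TPM, *Il15* at 0.0122 TPM and *Ostn* at 0 closed it, with overlapping samples.

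At D5 *Sparc* still led, at 1295 ± 31.5 TPM (SD, n = 3) and 84.9% of the summed TPM. *Vegfa* and *Metrnl* were no longer apart, at 82.0 ± 2.14 and 79.3 ± 0.629 TPM. *Bdnf* reached 19.7 ± 0.417 TPM, *Il15* 17.8 ± 0.415 and *Fndc5* 14.4 ± 1.06, so that the latter pair moved from the bottom of the order to above *Lif* at 9.52 ± 0.314 and *Angptl4* at 6.86 ± 0.562 TPM. From *Metrnl* down, no neighbours in the D5 order overlapped in their samples. *Apln* had 1.17 ± 0.111 TPM and *Ostn* 0.0882 ± 0.0888 TPM. The summed TPM of the 10 genes was 1914 ± 4.98 at D0 and 1526 ± 30.5 at D5, and without *Sparc* it was 239 ± 2.64 and 231 ± 1.02 (SD, n = 3 each).

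**Figure D3:**
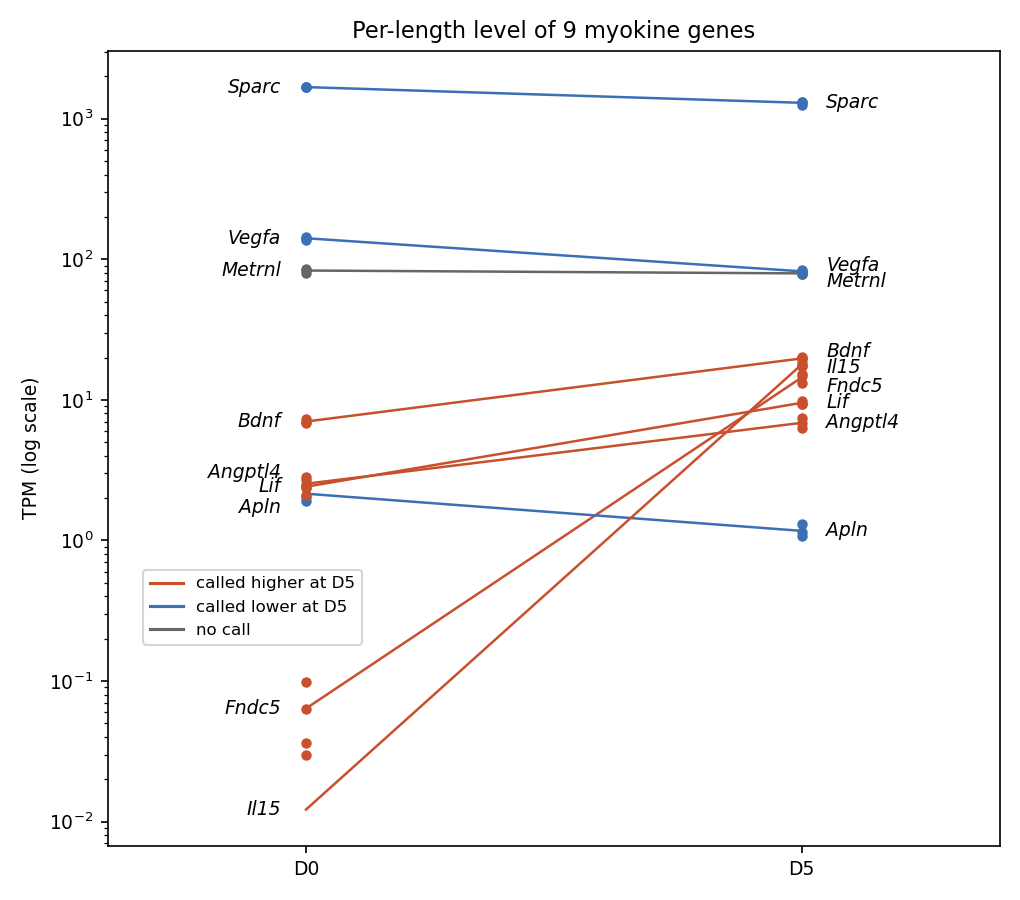
Mean level per length (TPM, log axis) of 9 myokine genes at D0 and D5, joined by lines coloured by call, with each sample above 0 as a point. *Ostn*, at 0 in all D0 samples, is left out, and *Il15* shows its 1 D0 sample above 0. *Il15* and *Fndc5* rise past *Lif*, *Angptl4* and *Apln*, whereas *Vegfa* and *Metrnl* end side by side at 82.0 and 79.3 TPM.

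A factor can act on the cells that make it only where its receptor is present, so the receptors and direct partners of the myokines were read beside them. Of 17 listed, 14 were tested, of which 7 were called higher and 5 lower at D5, close to the 42.2% and 40.8% of all genes tested, with a median log2 fold change of 0.09 against 0.00 over all genes. Among the 5, *Kdr* and *Il2rg* passed the filter only through their D0 counts and so had to differ. With at least 10 counts in every library, 3 were called lower. Under spike-in scaling 2 were called higher, *Itgb5* and *Sort1*, and 5 lower, beside 1813 higher and 3747 lower of all 16290 genes tested.

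Irisin has been reported to bind the integrin of αV and β5. *Itgb5*, the β5 subunit, rose beside *Fndc5* from 62.5 ± 4.17 to 281 ± 21.8 CPM (SD, n = 3 each), which is 2.17 on the log2 scale (adjusted p = 3.8e-27 in edgeR). *Itgav*, the αV subunit shared by several integrins, went from 228 ± 5.79 to 247 ± 5.20 CPM, a log2 fold change of 0.12 that turned to -0.46 under spike-in scaling.

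While *Il15* rose, 1 of the 3 chains of its receptor was called higher, 1 lower and 1 not at all. *Il2rb*, the signalling chain shared with interleukin 2, was called higher at 6.11 ± 0.535 CPM against 2.95 ± 0.278 (SD, n = 3 each; log2 fold change 1.05), a call lost under spike-in scaling (0.51, edgeR adjusted p = 0.473). *Il2rg*, the common γ chain, had 85, 86 and 58 counts at D0 and 8, 4 and 10 at D5 and was called lower (log2 fold change -2.68, adjusted p = 1.3e-09 in edgeR). That call was fixed by the filter, which *Il2rg* passed only through D0. *Il15ra*, which binds and presents the cytokine, had 18, 23 and 17 counts against 9, 10 and 17, a log2 fold change of -0.01 with a 95% interval from -0.66 to 0.65 that leaves a change in either direction possible.

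Both chains of the *Lif* receptor were called higher, and neither was under spike-in scaling. *Il6st*, the shared signal transducer gp130, went from 166 ± 2.61 to 363 ± 17.4 CPM (SD, n = 3 each), which is 1.13 on the log2 scale and 0.55 under spike-in scaling (edgeR adjusted p = 0.418). *Lifr* went from 171 ± 1.75 to 250 ± 7.31 CPM, a log2 fold change of 0.55 that stood at -0.00 under spike-in scaling.

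For *Bdnf*, the signalling receptor *Ntrk2* (TrkB) had 1 count in all 6 libraries together and *Ngfr* (p75) at most 9 in any, so neither was tested. *Sort1*, which encodes sortilin, a sorting receptor that binds the *Bdnf* precursor, rose from 19.1 ± 0.326 to 70.2 ± 2.55 CPM (SD, n = 3 each), which is 1.88 on the log2 scale (adjusted p = 8.4e-26 in edgeR). *Lpl*, the lipase that *Angptl4* inhibits, moved against it, from 20.2 ± 0.837 to 6.74 ± 0.387 CPM (SD, n = 3 each), which is -1.58 on the log2 scale.

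The kinase receptors of *Vegfa* fell with their ligand. *Flt1* had 218, 256 and 224 counts at D0 and 12, 12 and 14 at D5 (log2 fold change -3.51), and *Kdr* had 90, 118 and 92 against 5, 6 and 5 (log2 fold change -3.52). The call of *Kdr* was fixed by the filter, which it passed only through D0. The co-receptor *Nrp2* was called higher, with a log2 fold change of 1.13 that lost its call under spike-in scaling (0.54, edgeR adjusted p = 0.429), and *Nrp1* was not called, at 0.06 with a 95% interval from -0.03 to 0.16. Of the endothelial markers, *Tek* was called lower, with 30, 26 and 35 counts at D0 and 3, 5 and 12 at D5. *Cldn5* was called higher, with 0 counts in every D0 sample and 28, 25 and 26 at D5. Each passed the filter through 1 group only, which fixed its direction. *Pecam1*, *Cdh5* and *Emcn* had too few counts to be tested, and a part of endothelial cells in these falls was not tested. *Aplnr*, the apelin receptor, had at most 5 counts in any library. *Npr3*, the clearance receptor that *Ostn* binds, fell from 44.2 ± 2.19 to 10.4 ± 0.295 CPM (SD, n = 3 each), which is -2.09 on the log2 scale.

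**Figure D4:**
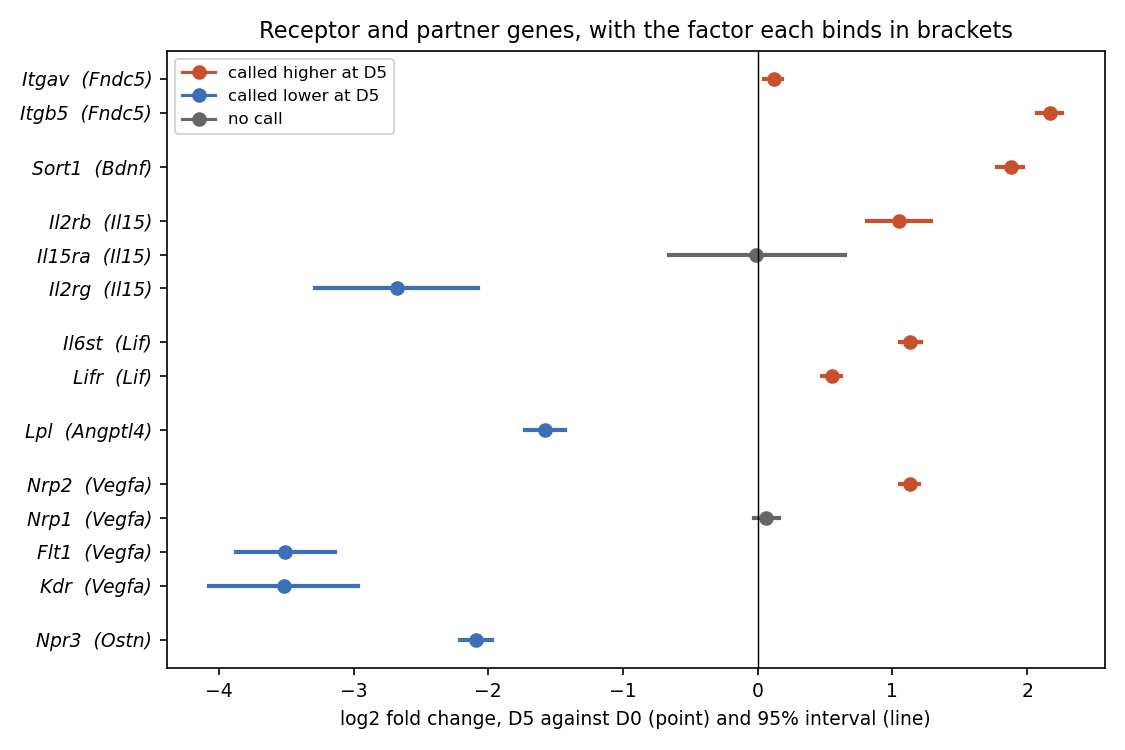
Log2 fold change of D5 against D0 (point) with its 95% interval (line) for the 14 tested receptor and partner genes, with the myokine each belongs to in brackets and colours by call. *Itgb5*, *Sort1*, *Il6st*, *Nrp2* and *Il2rb* lie above 1, whereas *Flt1*, *Kdr*, *Il2rg*, *Npr3* and *Lpl* lie below -1. *Itgav*, *Lifr* and *Nrp1*, above 0 here, lie at or below 0 under spike-in scaling.

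Of 23 paralogs of the myokines, 13 were tested, with 7 called higher and 5 lower, beside 42.2% and 40.8% of all genes tested, 1 not called, and a median log2 fold change of 0.97. Under spike-in scaling 3 were called higher and 2 lower, beside 1813 and 3747 of all 16290 genes tested. Within the family of *Lif*, *Ctf1* (cardiotrophin 1) rose from 0.598 ± 0.079 to 12.6 ± 0.681 CPM (SD, n = 3 each; log2 fold change 4.38), while *Clcf1*, a cytokine of the same family, was lower at D5 (log2 fold change -0.38), a call lost under spike-in scaling. Within the family of *Vegfa*, the lymphatic growth factors *Vegfd* and *Vegfc* rose while *Vegfa* fell, with log2 fold changes of 2.50 and 2.17. *Angptl2* moved against *Angptl4*, from 638 ± 21.1 to 105 ± 5.66 CPM (SD, n = 3 each; log2 fold change -2.60).

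Of 8 proteases that cut secreted precursors, 5 were tested, with 1 called higher and 4 lower, beside 42.2% and 40.8% of all genes tested. *Furin*, which cleaves the *Bdnf* and *Vegfc* precursors among others, went from 188 ± 3.39 to 146 ± 8.18 CPM (SD, n = 3 each), which is -0.36 on the log2 scale. *Mbtps1* (site-1 protease) and *Pcsk7* were also called lower, with log2 fold changes of -0.62 and -0.18. These 3 calls were lost under spike-in scaling. *Pcsk6*, another proprotein convertase and named after its value was seen, had 76, 84 and 92 counts at D0 and 15, 16 and 28 at D5, a log2 fold change of -1.41, and it was the 1 protease called under spike-in scaling (-2.16, edgeR adjusted p = 9.9e-04). The 1 called higher, *Pcsk4*, was named after its value was seen: its log2 fold change of 0.44 (edgeR adjusted p = 0.0108) turned to -0.15 under spike-in scaling, and without D0 replicate 1 the count of proteases called higher was 0.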

How the data were processed

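RNA-seq was made from 3 D0 and 3 D5 C2C12 samples. The authors aligned the reads to GRCm38 and deposited featureCounts output, which is raw read counts per gene with no normalization. The paper's methods and the labels name different aligners and quality tools. The annotation release and strand setting are not given in the sources used here. Each table also held 92 ERCC rows and 1 unnamed row equal to the column total, which were left out of library sizes. Submitters' notes name DESeq2 1.6.3.

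Samples were grouped by the day in their titles. With edgeR 4.0.16 (R 4.3.3), genes were filtered by filterByExpr, scaled by TMM to CPM and tested with the quasi-likelihood method, with Benjamini-Hochberg adjustment over 16290 genes. TPM and positions used GENCODE M21 of GRCm38, which held 99.8% of the gene rows by identifier without version. A gene could pass the filter through the counts of 1 group alone, and it then had to differ. The counts of calls per list include such genes. Among them, named for this reason, are *Car9*, *Adm*, *Ucp3*, *Ppara*, *Il7*, *Ptn*, *Cldn5*, *Lum* and *Dpt* through D5. *Kdr*, *Il2rg*, *Tek* and *Cpt1b* passed through D0. SEs were derived from the log2 fold change and the F statistic. Ratios against 1 to 6 pooled counts carry an exact 95% binomial interval (scipy 1.17.1), which covers counting error only. Within groups, pairs of libraries differed by more than sampling noise (chi-square over its degrees of freedom 2.16 to 3.45), and each counted as 1 sample.

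The members and gene lists were chosen with earlier results of these data known. Named genes are all members, all receptors and a choice by rule from each other list except the cell type markers. That rule took up to 3 called genes with the largest rise and 3 with the largest fall. It was limited to genes averaging 100 counts or more in 1 group. Cell type markers were named outside this rule, and not all of them are named. Alternatives were DESeq2 1.42.0, upper-quartile factors, total counts, ERCC scaling, 2 other filters, each library left out, and a replicate block. The labels do not say whether replicate numbers pair the samples, and the main test used no pairing. Same-numbered D0 and D5 libraries correlated in their deviations by 0.0329, 0.0645 and 0.0277, and differently numbered ones by -0.0435 to 0.0103. The scripts were tested on simulated data. Protein measurements were not analysed here, and 1 gene that the naming rule picks among the paralogs is not reported here.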

Additional observations from a re-analysis of the deposited data

How the results depend on the processing

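Scaling to the ERCC spike-ins changed most. It reversed *Metrnl* to a log2 fold change of -0.474 and left 1813 genes called higher and 3747 lower, with 3 myokines higher and 0 lower, 2 receptors higher, 3 paralogs higher and 2 lower, 0 proteases higher and 1 lower, 3 hypoxia-responsive genes higher and 2 lower, 3 PPAR-responsive genes higher and 1 lower, and 3 regulators higher and 3 lower. The spike-in share varied from 0.720% to 2.09% among D5 libraries, and the cause was not tested. With at least 10 counts in every library, 3 myokines were called higher, since *Fndc5* and *Il15* were no longer tested, and likewise 3 receptors and 1 PPAR-responsive gene were called lower. DESeq2 called 1 PPAR-responsive gene lower and 0 proteases higher, and without a filter on low counts 2 proteases were called higher. Upper-quartile factors and total counts changed no myokine's call, and with total counts *Metrnl* stood at 0.00, hypoxia-responsive genes called lower went from 4 to 6 and receptors called higher from 7 to 6. Leaving out 1 library each kept every myokine's call. The PPAR-responsive genes called lower then ranged from 1 to 2 and the proteases called higher from 0 to 1. The labels do not say whether the numbers shared by D0 and D5 samples pair them. With these numbers as a replicate block, 13558 genes were called in place of 13510 and no myokine's call changed (*Metrnl* 0.09, adjusted p = 0.0544 in edgeR's test). Every library correlated best with its own number, a hint from the data and not the design. Low counts limited what could be read for *Ostn*, *Ntrk2*, *Ngfr* and *Aplnr*, and for the D0 level of *Fndc5* and *Il15*. Whether these transcripts were absent or too rare for this depth was not tested.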

Other observations

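Other factors that muscle cells secrete moved in both directions. Of 25 listed, 24 were in the files and 20 were tested, with 12 called higher and 7 lower at D5, beside 42.2% and 40.8% of all genes tested, and a median log2 fold change of 1.89 against 0.00 over all genes. *Dcn*, which encodes the matrix proteoglycan decorin, had 12, 13 and 20 counts at D0 and 6636, 5646 and 5812 at D5, a log2 fold change of 9.32. It met the limit of the filter on low counts in every D5 sample but not in every D0 sample, so its passing leaned on D5. *Igf1*, the growth factor that drives muscle growth, rose by 7.20 on the log2 scale, and *Fgf21*, a metabolic hormone, rose by 6.48. *Postn*, which encodes the matrix protein periostin, fell from 1904 ± 67.8 to 113 ± 10.3 CPM (SD, n = 3 each), which is -4.08 on the log2 scale. *Gdf15*, a stress-induced cytokine, and *Nrg1*, a nerve-derived growth factor, were also called lower, with log2 fold changes of -2.60 and -1.71. *Mstn* (myostatin) and *Il6*, 2 well known muscle factors named after their values were seen, had at most 3 counts in any library. Beside these values, *Lum*, a proteoglycan and marker of fibroblasts and fibro-adipogenic cells, had 0 counts in every D0 sample and 301, 209 and 235 at D5, at least 132-fold higher over a floor of 3 counts, and *Pdgfra*, *Dpt* and *Cd34* also rose. Their part in the rise of *Dcn* was not tested.

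*Vegfa*, *Angptl4* and *Apln* are known to respond to low oxygen, and other genes of that kind were read beside them. Of 13 hypoxia-responsive genes, all tested, 7 were called higher and 4 lower, beside 42.2% and 40.8% of all genes tested. Under spike-in scaling these counts were 3 and 2, beside 1813 and 3747 of all 16290 genes tested. *Egln3*, an oxygen sensor that marks hypoxia-inducible factors for decay, rose by 4.30 on the log2 scale. *Car9*, a carbonic anhydrase, had 4, 2 and 7 counts at D0 and 126, 133 and 145 at D5, a log2 fold change of 5.59. *Adm*, named after its values were seen, had 2, 1 and 2 counts at D0 and 39, 36 and 32 at D5. Both passed the filter only through their D5 counts and so had to differ. The glucose transporter *Slc2a1* and *Ndrg1* were called lower, with log2 fold changes of -1.65 and -1.85. *Pdk1* was higher by 1.05 and *Pfkfb3* was at -0.58, and both lost their calls under spike-in scaling.

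*Angptl4* is also a target of PPAR receptors. Of 11 PPAR-responsive genes, 10 were tested, with 8 called higher and 2 lower, beside 42.2% and 40.8% of all genes tested. Under spike-in scaling these counts were 3 and 1, beside 1813 and 3747 of all 16290 genes tested. *Ucp2*, an uncoupling protein of mitochondria, rose by 6.82 on the log2 scale, *Fabp3*, a fatty acid carrier of muscle, by 3.38 and *Slc25a20*, the carnitine carrier, by 1.42, of which *Slc25a20* lost its call under spike-in scaling. *Plin2*, a lipid droplet protein, was lower with a log2 fold change of -0.42, a call also lost there. The other gene called lower, *Cpt1b*, had at most 26 counts in any library, and without D0 replicate 3 or without D5 replicate 1 the count called lower was 1. *Ucp3*, called higher and named after its values were seen, had 1, 0 and 2 counts at D0 and 35, 35 and 30 at D5. It passed the filter only through D5, and *Cpt1b* only through D0, so both had to differ.

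Among 12 transcription factors and coactivators linked to these genes, 7 were called higher and 5 lower, beside 42.2% and 40.8% of all genes tested. Under spike-in scaling these counts were 3 and 3, beside 1813 and 3747 of all 16290 genes tested. *Mef2c*, a muscle transcription factor, rose by 7.96 on the log2 scale, *Mef2d* by 1.22 and *Foxo1* by 0.49, of which under spike-in scaling *Mef2d* lost its call (0.65, edgeR adjusted p = 0.335) and *Foxo1* turned to -0.07. *Pparg*, *Creb1* and *Hif1a* were called lower, with log2 fold changes of -1.27, -0.77 and -0.70. *Ppara* and *Epas1*, relatives of *Pparg* and *Hif1a* named after their values were seen, were called higher at low levels. They went from 0.0944 to 0.737 and from 0.442 to 2.00 mean CPM, with log2 fold changes of 2.95 and 2.16. Both kept their calls under spike-in scaling. *Ppara* passed the filter only through its D5 counts and so had to differ, and its calls add no support of their own.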
